A study of Sus scrofa with 80 samples.

Results

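Solute carrier genes, whose symbols begin with SLC and a number, encode most of the proteins that carry sugars, amino acids, metals, nucleotides, vitamins and metabolic acids across cell membranes. The members were all genes with such a symbol, taken from probe sets for which the platform's annotation gives that symbol alone, with the probe set of the highest mean kept for each gene. This gave 120 genes from 176 probe sets, among 6765 genes measured by 23999 probe sets. They fall into 37 families. By their known roles 117 are carriers, and 3 have only the name: SLC9A3R1 and SLC9A3R2 encode scaffold proteins that hold membrane proteins to the cytoskeleton, and SLC2A4RG encodes a transcription regulator. A further 5 probe sets list an SLC gene among several symbols and were left out.

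Blood was drawn from the anterior vena cava of pigs weaned and weighed at 35 days of age, and its RNA was hybridised to a porcine expression array. The study joined 2 traits at a time into 8 trait pairs: CD4+ with W35, CD8+ with W35, IFN-alpha with W35, IL-10 with W35, CD4+ with IFN-alpha, CD4+ with IL-10, CD8+ with IFN-alpha and CD8+ with IL-10. CD4+ and CD8+ are flow cytometry measures, IFN-alpha and IL-10 are cytokines measured by immunological kits, and W35 is body weight on day 35. In each pair, 5 animals from the upper tail of the self-product of both traits form the high group and 5 from the lower tail form the low group, which makes 80 arrays in 16 groups; breed, sex and any treatment are not given in the sources used here, and all groups share the age and the tissue.

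The same pig, and the same raw array file, serves in several pairs. Columns that correlated above 0.99 were counted as 1 animal, which left 29 animals, 21 of them in several pairs and 13 of them high in one pair and low in another. The lowest correlation within an animal was 0.9935 and the highest between animals was 0.9883. Hybridisation spike-ins divided the arrays into a lower class of 11 animals and a higher class of 18 animals. Values are log2 signals, so a difference of 1 is 2-fold; they ran from 2.15 to 14.96. Arrays give no read depth, and precision is limited by their number. Defining markers of most kinds of blood cell were measured in the 29 animals. Median signals were 12.36 for ALAS2 of red cell precursors, 8.17 for S100A8 of neutrophils and 8.11 for CD14 of monocytes. They were 9.46 for CD3E of T cells and 10.79 for PPBP of platelets. The defining B cell genes CD79A and MS4A1 were not among the genes measured.

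Blood mixes cells with very different transport needs. Mature red cells have no mitochondria and burn glucose to lactate, while their precursors import iron and make haem inside mitochondria. Neutrophils and monocytes depend on glucose uptake and pump metals out of the phagosome, activated lymphocytes import glutamine and other amino acids, and platelets take up serotonin from plasma. In whole blood, fewer cells of a type and less RNA per cell cannot be told apart.

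Of the 120 members, 75 had a mean signal at or above the median of all tested probe sets (5.61) and 45 lay below it; over all genes, 4939 of 6765 were at or above it. Roles were assigned by family, so a role can hold a carrier of another substrate, as the sugar carrier families hold the vitamin carrier SLC5A6 and the iodide carrier SLC5A5, and the amino acid carrier families the serotonin carrier SLC6A4. All 13 members of the metal ion carrier families lay at or above the median, as did 15 of 21 of the mitochondrial family, 10 of 17 of the sugar carrier families, 10 of 19 of the amino acid carrier families, 9 of 13 of the families for nucleosides and nucleotide sugars and both of the monocarboxylate family. The share was lower in the organic ion families and in those of sodium, potassium, proton and calcium exchangers, with 2 of 6 in each. No carrier of vesicular transmitters was among the members. Signals of different probe sets are not amounts that can be ranked, so levels are given gene by gene.

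The mitochondrial carriers of the SLC25 family move nucleotides, phosphate and metabolites across the inner mitochondrial membrane. SLC25A6, an ADP/ATP carrier, had a median signal of 13.16 over the 29 animals, with 12.08 in the lowest and 13.41 in the highest animal. SLC25A5, another ADP/ATP carrier, had a median of 10.74 and ran from 10.26 to 11.22. SLC25A3, which brings in phosphate for ATP synthesis, had a median of 11.51 and ran from 10.97 to 12.22. The SD over animals was 0.27 for SLC25A6, 0.27 for SLC25A5 and 0.33 for SLC25A3. Among the SDs of all genes these lay at percentiles 23.2, 21.1 and 40.6. SLC25A3's second probe set tracked the first with r = 0.06 only, so its probe sets do not give 1 pattern.

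Other mitochondrial carriers varied far more. SLC25A39, which imports glutathione into mitochondria and is needed for haem synthesis, had a median of 8.33, with 7.01 in the lowest and 10.65 in the highest animal, a 12.5-fold range, and its SD of 0.98 was the largest of the members at or above the median. SLC25A36, a carrier of pyrimidine nucleotides, had a median of 7.40 and ran from 5.22 to 8.45 (SD 0.82). SLC25A24, a calcium-regulated ATP-Mg/phosphate carrier, had a median of 9.30; its lowest animal was at 6.53 and its highest at 9.83 (SD 0.65). SLC25A37 or mitoferrin, which brings iron into mitochondria of red cell precursors, had a median of 7.18 and ran from 6.62 to 8.70. SLC25A20, the carnitine-acylcarnitine carrier that feeds fatty acid oxidation, had a median of 6.62 and ran from 5.98 to 8.58.

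Among the metal carriers, SLC11A1, also called NRAMP1, pumps metal ions out of the phagosome of phagocytes. Its median was 8.15, with 6.25 in the lowest and 10.65 in the highest animal, a 21.0-fold range (SD 0.94). SLC11A2, the iron importer DMT1, had a median of 7.79 and ran from 5.81 to 8.67 (SD 0.85), but its other 3 probe sets correlated with this one between -0.31 and 0.15, so that spread is of 1 probe set. SLC30A5, which loads zinc into the secretory pathway, had a median of 6.96 and ran from 4.86 to 8.67 (SD 0.81), with r between -0.13 and 0.66 to its other probe sets. At the other end, SLC39A7, which releases zinc from the endoplasmic reticulum, stayed between 7.71 and 8.47 (SD 0.18). SLC39A1, a zinc importer of the plasma membrane, ran from 7.76 to 9.09 (SD 0.34, at percentile 44.7 of all genes).

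Among carriers of fuel, SLC2A3 or GLUT3, a high-affinity glucose importer, had a median of 11.50, with 10.39 in the lowest and 13.42 in the highest animal, an 8.21-fold range (SD 0.66). SLC16A3 or MCT4, which exports lactate, had a median of 6.95 and ran from 5.63 to 8.94 (SD 0.75). SLC2A5, the fructose importer GLUT5, lay below the median probe set on average but ran from 4.62 to 8.01 (SD 0.84). SLC22A5 or OCTN2, the importer of carnitine, had a median of 7.89 and ran from 6.48 to 9.35 (SD 0.77). SLC50A1, also a sugar carrier, was the contrast, with an SD of 0.20.

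Among amino acid carriers, SLC7A1 or CAT1, the importer of arginine and lysine, had a median of 8.87 and ran from 7.47 to 9.99 (SD 0.66). SLC38A1, an importer of glutamine and other neutral amino acids, ran from 6.42 to 9.27 (SD 0.62). SLC1A5 or ASCT2, a glutamine exchanger, stayed between 7.79 and 9.02 (SD 0.27). SLC6A4, the serotonin transporter through which platelets fill their granules, had a median of 5.63, with 4.79 in the lowest and 6.68 in the highest animal (SD 0.53).

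From the remaining roles 4 further members are given. SLC46A2, of the folate carrier family, had a median of 8.22 and ran from 5.50 to 9.88 (SD 0.93). SLC35F5, of the nucleotide sugar carrier family, ran from 4.82 to 7.87 (SD 0.70), with r between -0.02 and 0.53 to its other probe sets. SLC44A2, a choline carrier-like protein, ran from 8.36 to 9.81 (SD 0.32, at percentile 36.6 of all genes). The scaffold gene SLC9A3R1 ran from 10.75 to 11.95 (SD 0.34, at percentile 43.2).

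**Figure D1:**
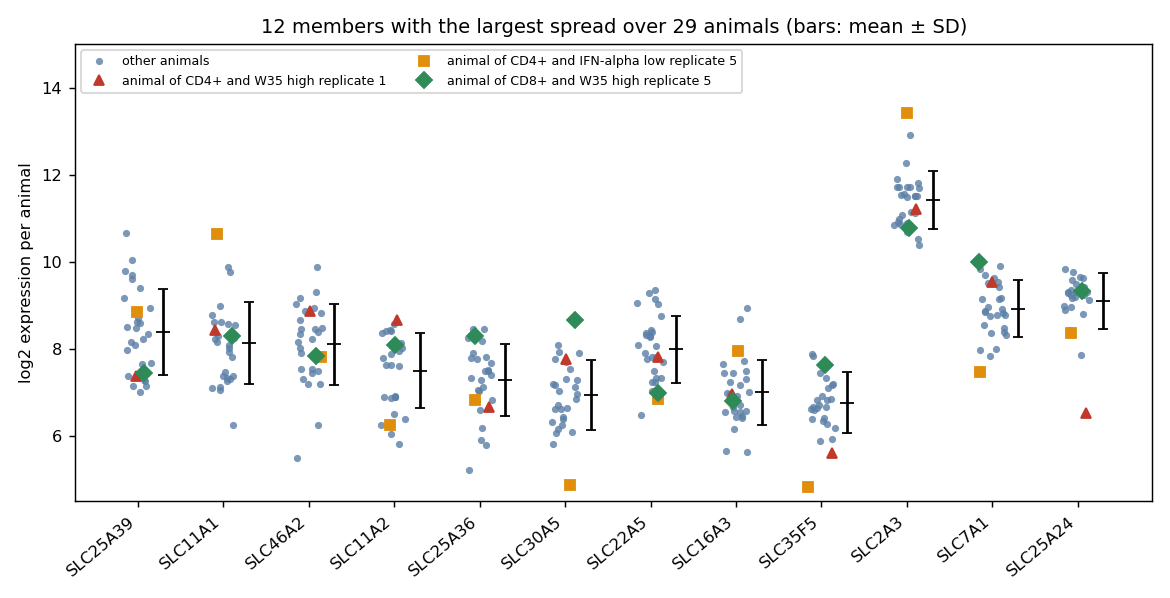
Log2 expression (vertical axis) of the 12 members with the largest spread among those at or above the median probe set, with 1 point per animal (29 animals) and the mean ± SD at the right of each gene. The square, the animal with the highest SLC11A1 and SLC2A3 signals, also holds the lowest SLC30A5, SLC35F5 and SLC7A1 signals.

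Over all 120 members the median SD was 0.363, beside 0.360 over all 6765 genes, and at or above the median probe set it was 0.406 for members and 0.390 for all genes. A range over 2 log2 units, or 4-fold, was seen in 35 of the 120 members, 29 of them at or above the median probe set. As a yardstick, columns of the same raw array normalized in different pairs differed by a median within-animal SD of 0.124, and the SD between animals was over 2 times that of its own gene in 89 of 120 members. That yardstick covers processing only, since no animal was hybridised again. The shares of all genes for these counts of 35 and 89 members were not computed, so neither count is read as particular to the members.

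A few animals held many of the extremes. The animal of CD4+ with W35 high replicate 1, called animal A here, had the highest signal of 14 and the lowest of 7 of the 75 members at or above the median. Animal B, which is CD4+ with IFN-alpha low replicate 5, CD4+ with IL-10 high replicate 5 and CD8+ with IL-10 low replicate 4, had the highest of 11 and the lowest of 9. Animal C, which is CD8+ with W35 high replicate 5, IL-10 with W35 low replicate 2, CD8+ with IFN-alpha low replicate 1 and CD8+ with IL-10 low replicate 5, had the highest of 4 and the lowest of 12. Animal B also had the lowest mean of T cell markers (7.45, against a median of 9.02 over the 29 animals) and the highest mean of neutrophil markers (9.41, against a median of 7.90). Without these 3 animals the median SD of the members was 0.312, and 9 of the 12 members with the largest spread stayed among the 12. With the mean of each gene's probe sets 8 of the 12 stayed, since the SD was 0.24 for SLC11A2, 0.37 for SLC35F5, 0.37 for SLC25A24 and 0.46 for SLC30A5.

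Each member was next set against the mean of markers of 6 kinds of blood cell over the 29 animals. The lists measured 10 erythroid, 10 neutrophil, 8 monocyte, 10 T cell, 8 cytotoxic and NK cell and 7 platelet genes; a B cell list rested on 2 genes and is not described. Pearson's r was tested with 100000 permutations, two-sided, with Benjamini-Hochberg adjustment over the 47355 relations of 6765 genes with the 7 lists. Of the members, 30 had an adjusted permutation p under 0.05 with at least 1 of the 6 lists, in 44 relations. Of these relations, 10 also passed with Spearman's rho. By list and sign, 0% to 12.5% of members passed, beside 0.192% to 6.56% of all genes, so the total is not particular to the members. The lists were not independent of each other: over the animals the T cell mean had r = -0.542 with the neutrophil mean and 0.511 with the erythroid mean. The relations rested in part on animals A, B and C, so values without them are given, as are other settings that ended a call. Among these settings, the mean of probe sets averaged the probe sets of every gene, those of the markers included.

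SLC25A39 tracked the erythroid markers most closely. Its r with the erythroid mean was 0.929 (n = 29, adjusted permutation p = 0.00221) and rho was 0.937; r was 0.931 without the 2 animals farthest from the median, 0.933 and 0.927 within the higher and lower spike-in class, and 0.941 without animals A, B and C. The erythroid mean itself spanned 7.50 to 10.23. SLC38A9, a lysosomal carrier that senses arginine, also passed (r = 0.547, adjusted permutation p = 0.0405). It did not pass without the 3 animals (r = 0.560, adjusted permutation p = 0.0702) or with the mean of probe sets (r = 0.436). In the opposite direction, SLC7A7, an exporter of cationic amino acids, had r = -0.668 with the erythroid mean (adjusted permutation p = 0.00873; rho = -0.652), and -0.700 without the 3 animals. SLC31A1 or CTR1, the copper importer, had r = -0.536 (adjusted permutation p = 0.0458). Without the 3 animals its r was -0.572 (adjusted permutation p = 0.0752). It was -0.498 (adjusted permutation p = 0.0752) with the mean of probe sets and -0.511 (adjusted permutation p = 0.05) on the values as deposited. With the erythroid mean, 2 members were positive (1.67%, beside 2.03% of all genes) and 2 negative (1.67%, beside 1.97%).

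Of the 120 members, 15 were positive with the neutrophil mean (12.5%, beside 6.18% of all genes) and 4 negative (3.33%, beside 6.56%). SLC2A3 had r = 0.739 (adjusted permutation p = 0.00221; rho = 0.635), 0.586 without the 2 farthest animals and 0.631 without animals A, B and C. SLC39A2, a zinc importer, had r = 0.742 (adjusted permutation p = 0.00221), and 0.655 without the 3 animals, though rho was 0.452 and did not pass. SLC25A11, the mitochondrial oxoglutarate carrier, had r = 0.721 (adjusted permutation p = 0.00221; rho = 0.613), and 0.634 without the 3 animals. SLC37A4, the glucose-6-phosphate carrier whose loss in people causes neutropenia, had r = 0.700 (adjusted permutation p = 0.00836), but 0.566 with an adjusted permutation p of 0.0859 without the 3 animals. Other sugar carriers with a positive relation were SLC2A8 (r = 0.659) and SLC2A4 (r = 0.544), and the remaining 9 members had r from 0.524 for SLC31A1 to 0.596 for SLC9A3. Without animals A, B and C, 4 members passed with the neutrophil mean.

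The 4 members with a negative relation to the neutrophil mean carry amino acids, nucleotides and zinc. SLC38A1 had r = -0.705 (adjusted permutation p = 0.00576), SLC25A6 had r = -0.647 (0.0174), SLC7A1 had r = -0.639 (0.0117) and SLC30A5 had r = -0.559 (0.0344). None of them passed without animals A, B and C, where r lay between -0.578 for SLC38A1 and -0.379 for SLC30A5. With arrays centred on their median, SLC25A6 and SLC30A5 did not pass either (r = -0.444 for each), and SLC25A6 did not on the values as deposited (r = -0.528).

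With the monocyte mean, 6 members were positive (5.0%, beside 2.73% of all genes) and 2 negative (1.67%, beside 2.59%). SLC11A1 had r = 0.603 (adjusted permutation p = 0.0159; rho = 0.619), and 0.746 without animals A, B and C (adjusted permutation p = 0.00806). Its relation with the neutrophil mean was positive as well (r = 0.555, adjusted permutation p = 0.0377), but rho was 0.235 and r was 0.246 without the 2 animals with the most distant neutrophil means. SLC8A1, a sodium-calcium exchanger of low signal, had r = 0.632 with the monocyte mean, SLC39A7 had 0.573 and SLC2A3 had 0.567. These 3 passed also without the 3 animals. SLC2A3, which has 1 probe set, did not pass with the mean of probe sets (r = 0.533, adjusted permutation p = 0.0514), a setting that changes the marker mean. SLC25A3 (r = -0.633) and SLC35D2, a nucleotide sugar carrier (r = -0.543), were negative and did not pass without the 3 animals. They did not pass on the values as deposited (r = -0.309 and -0.234) or with centred arrays either. With the mean of probe sets SLC25A3 had r = -0.228.

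With the T cell mean, 4 members were positive (3.33%, beside 6.06% of all genes) and 7 negative (5.83%, beside 4.46%). The ADP/ATP carriers SLC25A6 (r = 0.743) and SLC25A4 (r = 0.582), and the amino acid carriers SLC38A1 (r = 0.613) and SLC38A9 (r = 0.561), were positive. Without animals A, B and C all 4 stayed positive but did not pass. There r was 0.571 for SLC25A6 (adjusted permutation p = 0.0719), 0.465 for SLC38A1, 0.453 for SLC38A9 and 0.306 for SLC25A4 (adjusted permutation p = 0.475). SLC25A4 also did not pass with centred arrays (r = 0.611, adjusted permutation p = 0.0533), nor SLC38A9 with the mean of probe sets (r = 0.453). On the negative side, SLC2A3 had r = -0.795 (adjusted permutation p = 0.00221; rho = -0.606), -0.545 without the 2 farthest animals and -0.714 without the 3 animals. SLC11A1 (r = -0.681), SLC2A5 (r = -0.679) and the anion exchanger SLC26A6 (r = -0.638) did not pass without them, nor did SLC26A6 on the values as deposited (r = -0.352) or with centred arrays (r = -0.461).

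SLC6A4 stood with the platelet markers. Its r with the platelet mean was 0.825 (n = 29, adjusted permutation p = 0.00221) and rho was 0.830; r was 0.780 without the 2 farthest animals, 0.836 and 0.822 within the higher and lower spike-in class, and 0.871 without animals A, B and C. It was the 1 member with a positive relation (0.833%, beside 2.75% of all genes), and 0 were negative (beside 0.296% of all genes). With the cytotoxic and NK cell mean, only the scaffold gene SLC9A3R2 passed (r = 0.600, adjusted permutation p = 0.0230), or 0.833% of members beside 0.547% of all genes positive, with 0 negative beside 0.192%; its r was 0.618 without the 3 animals, and 0.514 with centred arrays, where it did not pass (adjusted permutation p = 0.0548).

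**Figure D2:**
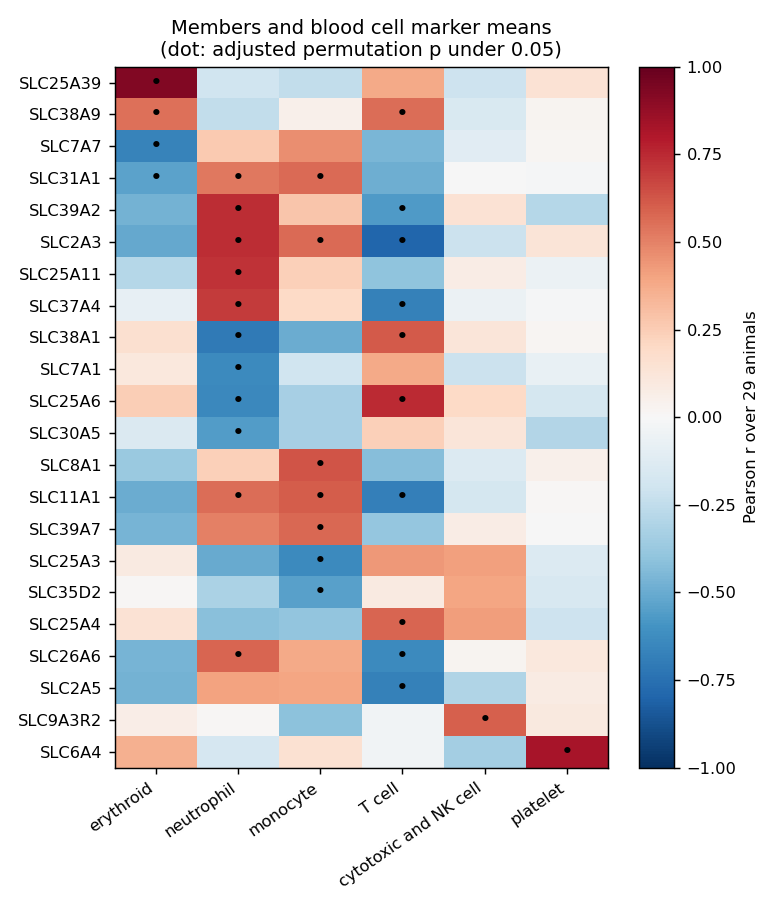
Pearson's r over 29 animals (colour, from -1 in blue to 1 in red) of 22 members with the mean of each of 6 blood cell marker lists, where dots mark an adjusted permutation p under 0.05. SLC25A39 with erythroid (0.929) and SLC6A4 with platelet markers (0.825) hold the strongest positive colours of their columns, and SLC2A3 is red for neutrophil and blue for T cell markers.

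**Figure D3:**
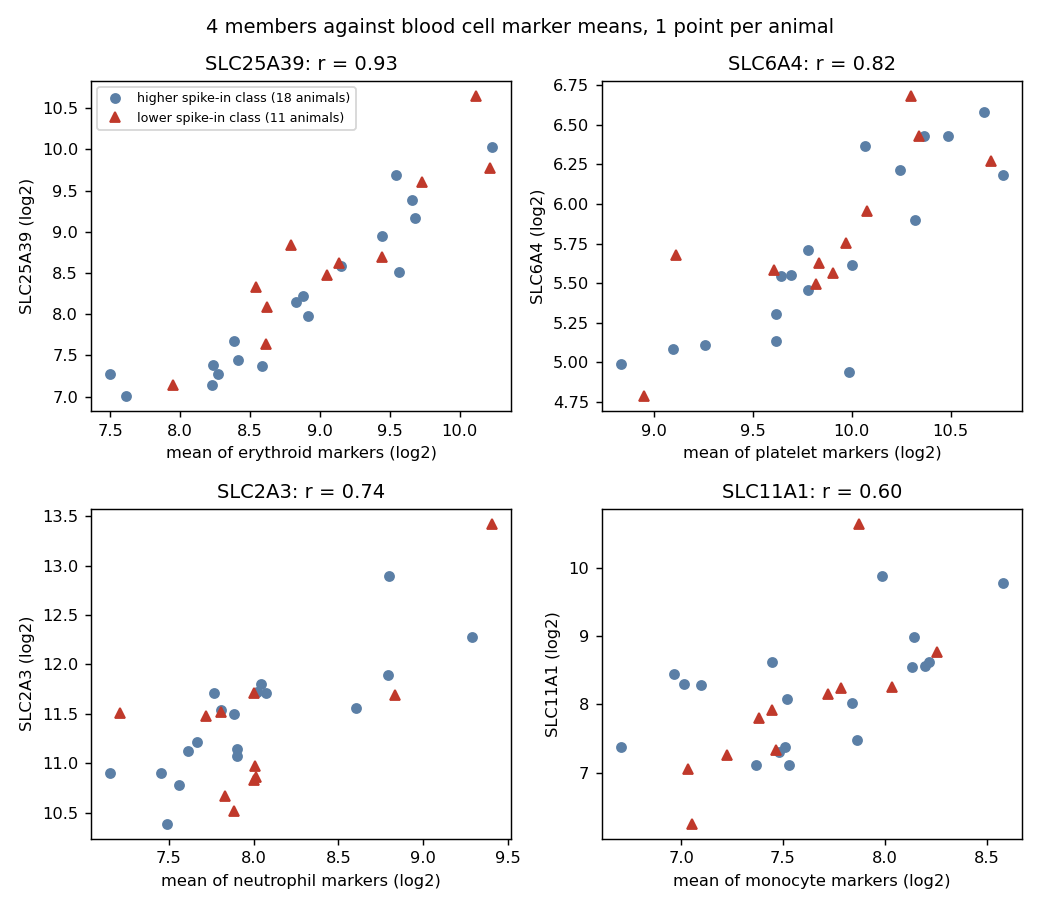
Log2 signal of 4 members (vertical axes) against the mean log2 signal of a marker list (horizontal axes), with 1 point per animal and the spike-in class by symbol. SLC25A39 and SLC6A4 rise along the whole range of their lists in both classes, while the highest SLC2A3 and SLC11A1 signals, 13.42 and 10.65, belong to 1 animal of the lower class.

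For the 12 members with the largest spread and SLC6A4, the 3 genes with the highest r over the 29 animals were looked up among all 6765 genes, with p adjusted over 87932 relations. SLC25A39 lay nearest to UBE2O (r = 0.923), FAM46C (0.918) and GABARAPL2 (0.909). UBE2O is a ubiquitin enzyme that clears proteins from maturing red cells. SLC11A1 lay nearest to ACVR1B (0.881), to CFP or properdin (0.857), a complement factor made by leukocytes, and to CD163 (0.821), the haemoglobin scavenger receptor of monocytes, which is in the monocyte list. SLC2A3 lay nearest to ALOX5AP (0.920), which serves leukotriene synthesis, ARAP3 (0.904) and the chemokine receptor gene CCR1 (0.897). Each of these 9 relations had an adjusted permutation p of 0.00115, the smallest that the permutations gave, and r stayed at 0.741 or above without the 2 animals farthest from the median.

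SLC22A5 lay nearest to PHF11 (r = 0.858), ZBP1 (0.854) and TRAFD1 (0.811). ZBP1 encodes a sensor of nucleic acids and TRAFD1 a regulator of innate signalling, and interferon induces both. SLC25A36 lay near OSER1 (0.834) and ZCCHC9 (0.783), and next to another member, SLC25A33 (0.782; rho = 0.708), which carries pyrimidine nucleotides into mitochondria as SLC25A36 does. SLC16A3 lay nearest to RPS6KA1 (0.870), TIAF1 (0.866) and PGD (0.864), an enzyme of the pentose phosphate pathway. SLC6A4 lay nearest to SELP (0.822), the P-selectin of platelet granules, which is in the platelet list. SLC30A5 and SLC7A1 had KTN1 in common among their 3 nearest genes, with r = 0.868 and 0.845. SLC46A2 had the weakest neighbours, led by CTNND1 (0.668, adjusted permutation p = 0.00358), and its r with CTSS dropped to 0.272 without the 2 farthest animals, against 0.624 with all 29.

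The 8 trait pairs were then compared, high minus low, with limma on each pair's own 10 arrays and adjustment over all 23999 probe sets. No member, and no probe set, had an adjusted p under 0.05 in any pair; the smallest adjusted p of a member was 0.552. At an unadjusted p under 0.05 there were 42 of 960 results of a member in a pair, from 33 members. In 7 results the 5 high arrays lay entirely on one side of the 5 low arrays. By pair, 0.833% to 4.17% of members were higher at that unadjusted threshold, beside 1.09% to 2.73% of all genes. Lower were 0% to 4.17% of members, beside 0.665% to 6.0% of all genes. Without overlap were 0% to 1.67% of members, beside 0.207% to 1.29% of all genes. As no member passed adjustment, all member differences below are ones that did not pass, given as sizes. The pairs share animals, so values that recur across them are not separate evidence.

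**Figure D4:**
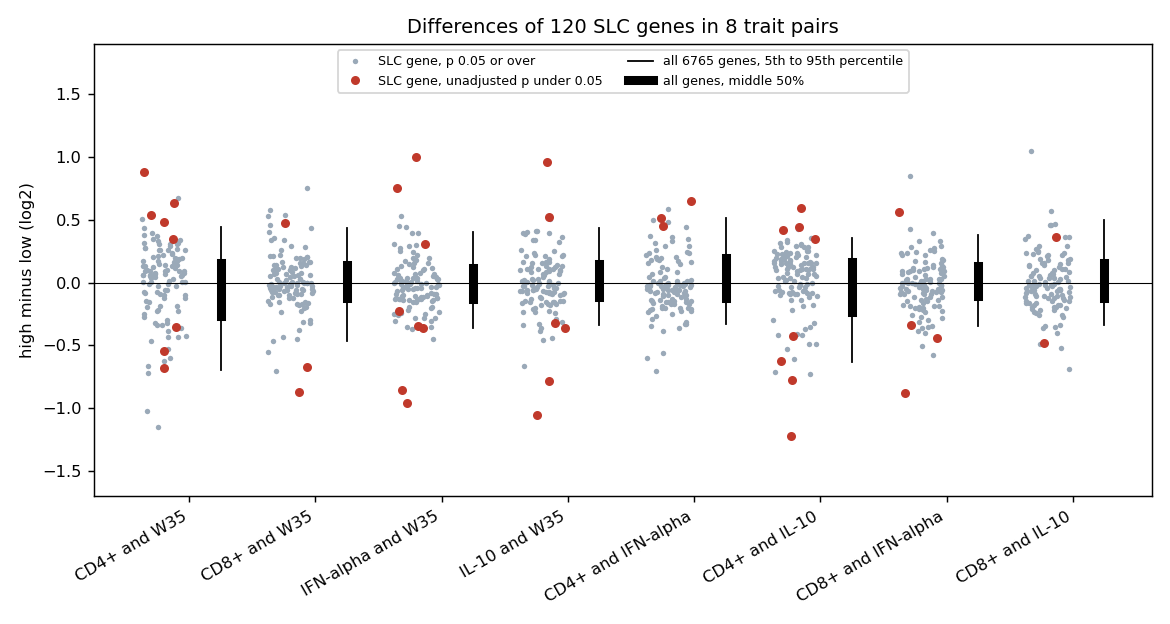
Difference of high minus low (vertical axis, log2) of 120 SLC genes in each of the 8 trait pairs, with red points at an unadjusted p under 0.05, beside the 5th to 95th percentile (thin line) and the middle 50% (thick line) of all 6765 genes. Member differences ran from -1.22 for SLC35F5 in CD4+ with IL-10 to 1.04 for SLC22A5 in CD8+ with IL-10, and none passed adjustment.

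In CD4+ with W35, 5 members were higher (beside 2.73% of all genes) and 3 lower (beside 6.0%) at an unadjusted p under 0.05, and 2 did not overlap (beside 1.29%). The median difference of members was 0.07, beside -0.02 for all genes. SLC38A9, the lysosomal arginine sensor, had 6.32, 6.69, 6.41, 5.94 and 6.54 in the high arrays, against 7.34, 6.67, 6.61, 7.34 and 7.35 in the low arrays. The high arrays lay lower apart from an overlap with low replicates 2 and 3, and the difference was -0.68 (SE 0.21, limma's unadjusted p = 0.00705, adjusted p = 0.552); with erythroid and neutrophil means as covariates it was -0.33 (unadjusted p = 0.067). The erythroid mean was 8.33 ± 0.66 in high arrays and 9.16 ± 0.84 in low arrays (SD, n = 5).

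SLC30A3, of the zinc exporters, had 8.11, 6.89, 6.74, 7.20 and 6.89 in the high arrays, against 6.66, 6.51, 6.49, 6.55 and 6.45 in the low arrays. All high arrays lay above all low arrays, and high replicate 1 stood far above the others. The difference of 0.63 (SE 0.23, adjusted p = 0.552 in limma) was 0.40 without that replicate. For SLC30A3 it was 0.37 (unadjusted p = 0.132) with the mean of its probe sets and 0.54 (unadjusted p = 0.0969) with erythroid and neutrophil covariates. SLC39A14, which imports zinc, iron and manganese, differed by 0.54 (SE 0.22, adjusted p = 0.552), and by 0.34 without high replicate 1, which is animal A. SLC25A36 differed by 0.88 and SLC9A3R2 by 0.35, while SLC9A3R1 differed by -0.54. With those covariates these differences were 0.71 (limma's unadjusted p = 0.189), 0.35 (0.072) and -0.32 (0.185). The other member without overlap, SLC1A6, is a low-signal glutamate carrier (difference 0.26), named after its values were seen. SLC25A39 averaged 7.59 in high arrays and 8.75 in low arrays, a difference of -1.15 (SE 0.55, unadjusted p = 0.0592 in limma), and the part of the erythroid mean in it was not tested. The count of 8 members was 4 without low replicate 4 or low replicate 5, 5 without high replicate 1 or high replicate 5, and 17 without high replicate 3.

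In CD8+ with W35, 1 member was higher (beside 2.29% of all genes) and 2 were lower (beside 2.05%), with 0 without overlap (beside 0.503%). SLC25A37 or mitoferrin had 6.98, 6.63, 7.09, 7.51 and 6.79 in the high arrays, against 6.42, 6.44, 6.70, 6.60 and 6.47 in the low arrays. Only high replicate 2 lay within the low arrays, and the difference was 0.47 (SE 0.16, limma's unadjusted p = 0.0143, adjusted p = 1). With erythroid and neutrophil covariates it was 0.325 (unadjusted p = 0.0749 in limma). The arginine and lysine importer SLC7A1 had 8.54, 8.17, 7.49, 8.10 and 9.84 in the high arrays, against 8.69, 9.68, 9.44, 9.31 and 9.39 in the low arrays. High replicate 5, which is animal C, was the highest of all 10 and the other 4 high arrays the lowest; the difference of -0.87 (SE 0.37, adjusted p = 1) was -1.23 without it and -0.57 with erythroid and neutrophil covariates. SLC6A4 differed by -0.67 (SE 0.29), and by -0.44 (unadjusted p = 0.143) with those covariates. The count of 3 members was 5 without low replicate 1, low replicate 5 or high replicate 3, 1 without low replicate 3 or 4, and 10 without high replicate 5.

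In IFN-alpha with W35, 3 members were higher (beside 2.37% of all genes) and 5 lower (beside 2.41%), and 2 did not overlap (beside 0.710%). SLC25A20, the carnitine-acylcarnitine carrier, had 6.09, 6.92, 6.47, 6.61 and 6.55 in the high arrays, against 7.25, 7.68, 6.69, 7.55 and 7.77 in the low arrays. Low replicate 3 alone reached into the high arrays, and the difference was -0.86 (SE 0.22, limma's unadjusted p = 0.00211, adjusted p = 0.999), between -0.75 and -1.03 when each array was left out. The glutamine exchanger SLC1A5 had 8.48, 8.16, 8.34, 8.46 and 8.47 in the high arrays, against 8.86, 8.54, 8.98, 8.51 and 8.84 in the low arrays. All high arrays lay below all low arrays, by a narrow margin at low replicates 2 and 4, and the difference was -0.37 (SE 0.12, limma's unadjusted p = 0.0136, adjusted p = 0.999).

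SLC11A1 had 8.05, 7.21, 7.11, 6.36 and 8.16 in the high arrays of that pair, against 9.56, 7.76, 8.68, 7.45 and 8.23 in the low arrays. The groups overlapped, with a difference of -0.96 (SE 0.43, limma's unadjusted p = 0.0462, adjusted p = 0.999). The monocyte mean was 7.45 ± 0.28 in high arrays and 7.98 ± 0.44 in low arrays (SD, n = 5), and its part in the result was not tested. Fitted with erythroid and neutrophil means as covariates, SLC11A1 differed by -1.43 (limma's unadjusted p = 3.79e-05), which did not pass adjustment. With the spike-in class as a block it differed by -0.87 (limma's unadjusted p = 0.0745), and without low replicate 1 by -0.65. Its unadjusted p stayed under 0.05 in 4 of the 10 fits that each left out an array. The riboflavin carrier gene SLC52A2 had no overlap but a small difference of -0.22 (SE 0.10). SLC25A36 differed by 1.0 (SE 0.42) and by 0.49 (unadjusted p = 0.25) with those covariates, and SLC9A3R2 differed by 0.31 (SE 0.13). The count of 8 members was 5 without low replicate 5, high replicate 1 or high replicate 4.

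In IL-10 with W35, 2 members were higher (beside 2.31% of all genes) and 4 lower (beside 1.82%), and 1 did not overlap (beside 0.621%). The mitochondrial pyrimidine nucleotide carriers were both among the lower ones. SLC25A36 had 7.27, 6.89, 7.14, 5.82 and 7.62 in the high arrays, against 7.90, 8.57, 7.63, 7.62 and 8.29 in the low arrays. All high arrays lay below all low arrays, with high replicate 5 close to low replicates 3 and 4; the difference was -1.06 (SE 0.32, limma's unadjusted p = 0.00626, adjusted p = 1), and -0.78 without high replicate 4. SLC25A33 had 6.62, 6.62, 6.98, 6.43 and 7.45 in the high arrays, against 7.20, 7.96, 7.05, 8.09 and 7.69 in the low arrays. Only high replicate 5 reached into the low arrays, and the difference was -0.78 (SE 0.25, adjusted p = 1 in limma), but the mean of its 2 probe sets differed by -0.37 (unadjusted p = 0.0613).

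The lactate exporter SLC16A3 ran the other way in that pair, with 7.51, 7.94, 7.05, 8.85 and 7.59 in the high arrays, against 6.51, 7.03, 6.67, 7.39 and 6.54 in the low arrays. High replicate 3 overlapped with low replicate 4, and the other 4 high arrays lay above all low arrays. The difference was 0.96 (SE 0.31, limma's unadjusted p = 0.00903, adjusted p = 1) and 0.70 without high replicate 4. SLC38A9 differed by 0.52 (SE 0.23), the creatine carrier SLC6A8 by -0.37 (SE 0.15) and the ADP/ATP carrier SLC25A4 by -0.32 (SE 0.14). Neutrophil means of that pair were 8.24 ± 0.33 in high arrays and 8.11 ± 0.67 in low arrays (SD, n = 5). The count of 6 members was 10 without low replicate 4 and 3 without high replicate 4.

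In CD4+ with IFN-alpha, 3 members were higher (beside 2.69% of all genes) and 0 lower (beside 1.15%), with 0 without overlap (beside 0.370%). The serotonin transporter SLC6A4 had 6.12, 5.71, 5.86, 6.38 and 6.30 in the high arrays, against 5.06, 5.50, 4.98, 5.61 and 5.99 in the low arrays. Low replicate 5, which is animal B, was the only low array within the high ones, and the difference was 0.65 (SE 0.21, limma's unadjusted p = 0.011, adjusted p = 0.971). The scaffold gene SLC9A3R1 differed by 0.45 (SE 0.15) and SLC38A9 by 0.51 (SE 0.22), or 0.33 (unadjusted p = 0.0505) with the mean of its probe sets. The count of 3 members was 9 without low replicate 2, 5 without low replicate 3, high replicate 2 or high replicate 5, and 6 without high replicate 4.

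SLC6A4 had an unadjusted p under 0.05 in 3 pairs, which share animals, and the platelet mean lay on the same side each time. In IFN-alpha with W35, SLC6A4 had 6.62, 6.12, 6.26, 6.75 and 6.51 in the high arrays, against 5.37, 5.74, 6.68, 5.60 and 5.11 in the low arrays. Low replicate 3 was as high as the high arrays, and the difference was 0.76 (SE 0.26, limma's unadjusted p = 0.0139, adjusted p = 0.999). Platelet means were 10.31 ± 0.29 in high and 9.72 ± 0.65 in low arrays of that pair, 10.28 ± 0.47 in high and 9.67 ± 0.59 in low arrays of CD4+ with IFN-alpha, and 9.37 ± 0.47 in high and 9.95 ± 0.32 in low arrays of CD8+ with W35 (SD, n = 5). The part of the platelet mean in these differences was not tested.

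In CD4+ with IL-10, 4 members were higher (beside 2.03% of all genes) and 4 lower (beside 4.26%), and 1 did not overlap (beside 0.798%). SLC25A24, the ATP-Mg/phosphate carrier, had 9.23, 8.68, 9.10, 9.41 and 8.08 in the high arrays, against 9.80, 9.64, 9.28, 9.85 and 9.80 in the low arrays. Of the high arrays only replicate 4 lay above low replicate 3, and the difference was -0.77 (SE 0.24, limma's unadjusted p = 0.00822, adjusted p = 0.749), or -0.43 for the mean of its 2 probe sets. SLC35F5 had 8.08, 6.20, 6.87, 6.62 and 5.16 in the high arrays, against 7.49, 8.15, 7.33, 7.95 and 8.10 in the low arrays. High replicate 1 lay among the low arrays and high replicate 5, animal B, far below all others; the difference of -1.22 (SE 0.44, adjusted p = 0.749) was -0.86 without replicate 5 and -1.59 without replicate 1. It was -0.59 for the mean of its 3 probe sets and -0.76 (unadjusted p = 0.0767) with erythroid and neutrophil covariates.

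In the same pair the cationic amino acid exporter SLC7A7 differed by -0.62 (SE 0.27) and the copper importer SLC31A1 by -0.42 (SE 0.19). The mean of probe sets differed by -0.30 (unadjusted p = 0.198) for SLC7A7 and by -0.17 (unadjusted p = 0.25) for SLC31A1. SLC31A1 had a relation over the animals with the monocyte mean and a positive one with the neutrophil mean. In this pair the monocyte mean was 7.33 ± 0.37 in high arrays and 7.98 ± 0.46 in low arrays. The neutrophil mean was 8.34 ± 0.70 in high arrays and 7.91 ± 0.38 in low arrays (SD, n = 5). The part of the monocyte mean in the SLC31A1 difference was not tested. With erythroid and neutrophil covariates SLC31A1 differed by -0.61 (limma's unadjusted p = 0.00518), and with quantile normalization again by -0.29 (0.22). On the higher side were SLC5A10, a sodium-coupled sugar carrier (0.44), SLC25A37 (0.42) and SLC44A2 (0.34). SLC5A10 differed by 0.25 (unadjusted p = 0.17) with the covariates, and the mean of probe sets by 0.27 (0.175) for SLC25A37 and by 0.14 (0.37) for SLC44A2. SLC7A4, a low-signal relative of the cationic amino acid carriers, was the member without overlap (0.59, SE 0.21), named after its values were seen. With the spike-in class as a block, 20 members in place of 8 had an unadjusted p under 0.05. The count was 4 without low replicate 2, 5 without low replicate 4 or high replicate 2, and 13 without high replicate 1.

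In CD8+ with IFN-alpha, 1 member was higher (beside 1.09% of all genes) and 3 were lower (beside 0.887%), and 1 did not overlap (beside 0.207%). That member was the fructose importer SLC2A5, of low signal and named after its values were seen. It had 5.11, 5.42, 5.47, 4.90 and 4.85 in the high arrays, against 6.53, 5.99, 5.67, 6.09 and 5.86 in the low arrays. All high arrays lay below all low arrays, and the difference was -0.88 (SE 0.19, limma's unadjusted p = 0.000661, adjusted p = 1). SLC15A2, a peptide importer, differed by 0.56 (SE 0.23). With the actin 3′ minus 5′ control signal as a covariate it differed by 0.31 (limma's unadjusted p = 0.17). That control signal averaged 2.13 ± 0.47 in high and 2.76 ± 0.80 in low arrays of this pair (SD, n = 5). SLC31A2, a copper carrier relative, differed by -0.44 (SE 0.19), and by -0.27 (unadjusted p = 0.126) with the mean of its probe sets. The count of 4 members was 12 without low replicate 1 (animal C), 7 without high replicate 3, 2 without low replicate 4, high replicate 1 or high replicate 4, and 1 without high replicate 5.

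In CD8+ with IL-10, 1 member was higher (beside 2.11% of all genes) and 1 lower (beside 0.665%), with 0 without overlap (beside 0.370%). Both lay below the median probe set and are named after their values were seen: SLC29A1, a nucleoside carrier, differed by 0.36 (SE 0.16) and SLC4A4, a bicarbonate carrier, by -0.48 (SE 0.18). SLC22A5 averaged 8.55 in high arrays and 7.51 in low arrays, the largest member difference of the pair in size. It was 1.04, with an SE of 0.53 (unadjusted p = 0.0752 in limma). The actin 3′ minus 5′ control signal averaged 1.97 ± 0.50 in high and 2.58 ± 0.37 in low arrays (SD, n = 5). The count of 2 members was 0 without low replicate 2, 9 without low replicate 4 (animal B), 6 without high replicate 2, and 1 without high replicate 3 or high replicate 5.

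**Figure D5:**
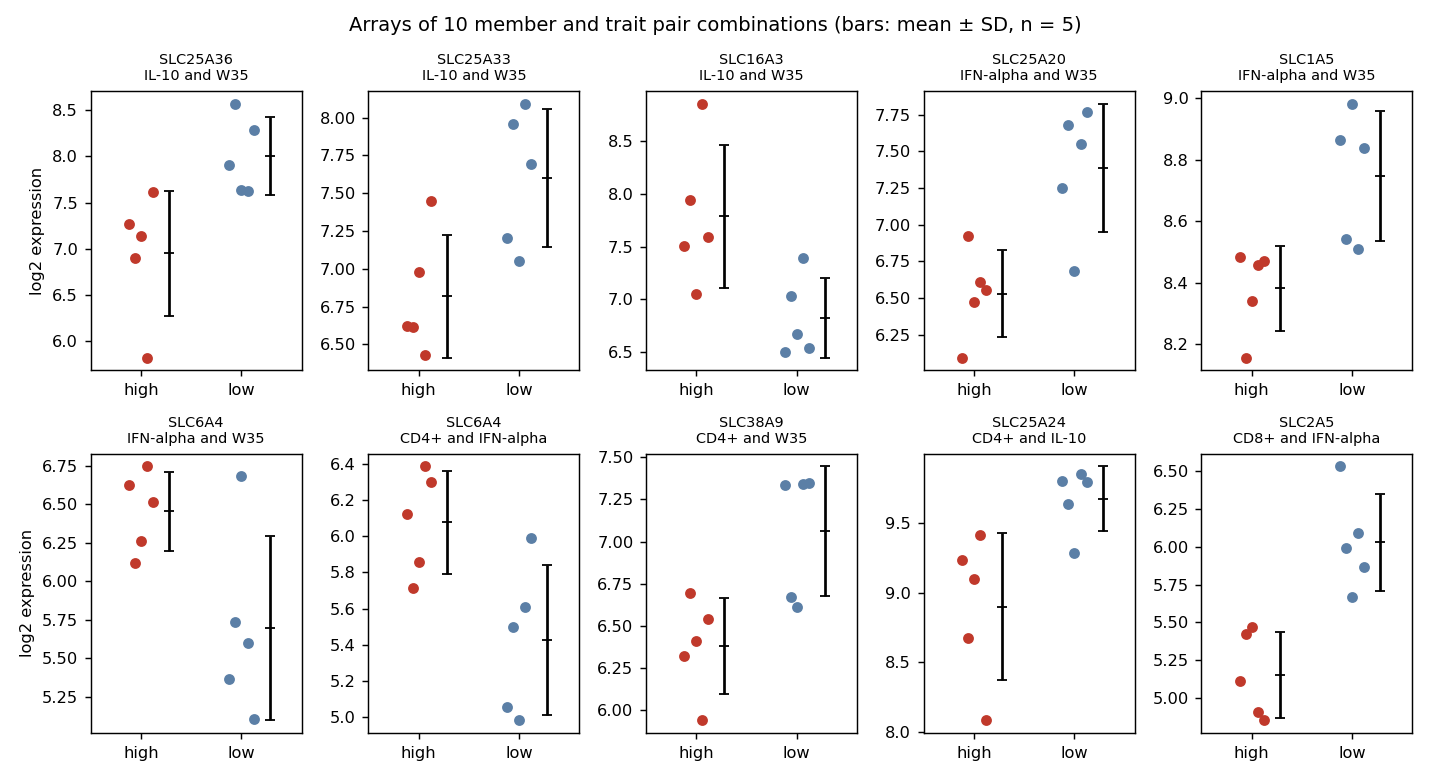
Log2 expression (vertical axes, each with its own range) in the 5 high and 5 low arrays of 10 combinations of a member and a trait pair, with the mean ± SD at the right of each group. SLC25A36, SLC1A5 and SLC2A5 have no overlap of high and low arrays, and the groups of the other panels overlap.

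Proteins that work beside these carriers were read from a list of 54 genes, of which 29 were measured: pumps, channels, carriers outside the SLC names and enzymes of iron and haem handling. None had an adjusted p under 0.05. At an unadjusted p under 0.05, CD4+ with W35 had 3 of the 29 higher (beside 2.73% of all genes) and 5 lower (beside 6.0%), CD8+ with W35 had 0 higher (beside 2.29%) and 3 lower (beside 2.05%), and IFN-alpha with W35 had 1 higher (beside 2.37%) and 0 lower (beside 2.41%). IL-10 with W35 had 0 higher (beside 2.31%) and 0 lower (beside 1.82%), CD4+ with IFN-alpha 2 higher (beside 2.69%) and 0 lower (beside 1.15%), and CD4+ with IL-10 0 higher (beside 2.03%) and 3 lower (beside 4.26%). CD8+ with IFN-alpha had 1 higher (beside 1.09%) and 2 lower (beside 0.887%), and CD8+ with IL-10 had 2 higher (beside 2.11%) and 0 lower (beside 0.665%). FECH, which inserts iron into haem, averaged 8.00 in high and 9.97 in low arrays of CD4+ with W35. The difference was -1.97 (SE 0.51, adjusted p = 0.552 in limma), in the pair in which SLC25A39 differed by -1.15. The other measured genes of iron and haem handling went both ways there. ALAS2 differed by -1.66, FTL by -0.36, FTH1 by -0.04, TFRC by 0.09, HMOX1 by 0.26 and TF by 0.32. Of these genes, FECH, ALAS2 and TFRC are in the erythroid list. ATP1B1, a subunit of the sodium pump on whose gradient many carriers run, averaged 7.02 in high and 8.51 in low arrays of CD4+ with IL-10 (difference -1.50, SE 0.33, adjusted p = 0.749 in limma). ATP1B1 was on the lower side in the pairs of W35 with CD4+ (-1.13) and with CD8+ (-1.22), and on the higher side in that of W35 with IFN-alpha (0.87).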

How the data were processed

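Per the labels, blood RNA of 80 arrays in 16 groups of 5 was hybridised to a porcine expression array, and the submitters' processing notes name RMA and limma without versions. The authors deposited log2 expression per probe set; each trait pair had been normalized on its own (array means ranged by at most 0.0643 within a pair, and from 5.64 to 6.08 between pairs). Of 24123 probe sets, 124 controls were left out; of the rest, 10069 have 1 gene symbol in the platform's annotation, 198 several and 13732 none. RefSeq gene IDs matched 118 of the 120 members and changed 0 symbols. No genome build, position or sequence was used here.

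For each pair, high minus low was fitted with limma 3.58.1 (R 4.3.3; lmFit, eBayes) on the deposited values, two-sided, with Benjamini-Hochberg adjustment over 23999 probe sets and a threshold of 0.05. For values per animal, all 80 arrays were quantile normalized together and columns of an animal averaged. Permutation tests used 100000 resamples (scipy 1.17.1, numpy 2.4.6). No label says that a replicate number pairs animals, so the main fits did not use it. Same-numbered deviations correlated between -0.544 and 0.365, and no pair had all 5 over 0.1. Such correlations cannot exclude a pairing.

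Named members were the 12 highest by mean, the 12 with the largest SD at or above the median probe set, the leading members of each role, up to 4 per direction in a pair at an unadjusted p under 0.05 and at or above that median, and up to 4 per sign and marker list. The members, lists and tests were chosen with earlier results of these data known; the nearest genes and the omission of 3 animals were added after seeing the values. In 39 members with several probe sets, the one kept was correlated with each of the others. All these correlations were over 0.5 in 13 members, and 8 members had one under 0. In simulated data with each pair's spread, limma recovered 38 to 69 of 100 changes of 2-fold and 87 to 97 of 100 changes of 4-fold over 23999 probe sets. The simulated probe sets varied independently of each other, and changes of both sizes were planted together. These are therefore not recovery rates for the real arrays, whose genes vary together.

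Alternatives were quantile normalization again, median centring, dropping probe sets below the median, and trend and robust options of eBayes. Covariates were the erythroid and neutrophil means, or the actin 3′ minus 5′ control signal. The replicate number or the spike-in class served as a block. Further alternatives averaged the probe sets of a gene or left out each array in turn.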

Additional observations from a re-analysis of the deposited data

Results flagged for a closer look

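SLC39A14, which imports zinc, iron and manganese, had a low-group array that stood apart in CD4+ with W35. Low replicate 1 was at 6.63, above the other 4 low arrays, which lay between 6.22 and 6.31; its gap to the nearest of them was 0.784 of the range of the group. It was 1 of 68 groups of 5 arrays examined, for members named in a pair, and chance gives about 1 in 20.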

How the results depend on the processing

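No member passed an adjusted p of 0.05 in any pair under any alternative run, and no named member changed direction. Counts of members at an unadjusted p under 0.05 in limma moved by over 1.5 times as follows. With only probe sets at or above the median they were 5 in CD4+ with W35 and in IFN-alpha with W35, 3 in IL-10 with W35 and in CD4+ with IL-10, 1 in CD8+ with IFN-alpha and 0 in CD8+ with IL-10. With quantile normalization again they were 5 in CD8+ with W35 and in CD4+ with IFN-alpha. With trend and robust settings they were 3 in IL-10 with W35, 5 in CD4+ with IL-10, 2 in CD8+ with IFN-alpha and 1 in CD8+ with IL-10. With erythroid and neutrophil covariates they were 6 in CD8+ with W35, 12 in CD4+ with IFN-alpha, 5 in CD4+ with IL-10 and in CD8+ with IL-10, and 1 in CD8+ with IFN-alpha. With the actin covariate they were 1 in CD8+ with IL-10 and 5 in IFN-alpha with W35. With the mean of probe sets they were 5 in CD8+ with W35, 5 in CD4+ with IL-10, and 1 in both pairs of CD8+ with a cytokine. With the spike-in class as a block, CD4+ with IL-10 had 20. Filters test fewer genes; the cause of the other moves was not tested. With the replicate number as a block, the counts were 8 in CD4+ with W35 and 5 in place of 8 in CD4+ with IL-10. No label says that this number pairs animals, and no adjusted call changed.

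Leaving out each array gave 4 to 17 members in CD4+ with W35, 1 to 10 in CD8+ with W35, 5 to 10 in IFN-alpha with W35, 3 to 10 in IL-10 with W35, 2 to 9 in CD4+ with IFN-alpha, 4 to 13 in CD4+ with IL-10, 1 to 12 in CD8+ with IFN-alpha and 0 to 9 in CD8+ with IL-10, with 0 at an adjusted p each time. Relations with the 7 marker lists numbered 56 in all, 6 within the higher and 0 within the lower spike-in class, which hold fewer animals, and 18 without animals A, B and C. With 5 arrays against 5, the median SE of a member lay between 0.16 and 0.23 in the pairs. A signal below the median probe set was measured in 45 members.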
